A study of Rattus norvegicus with 63 samples.

Results

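The adenosine receptors described here were 3 probe sets of the array, 1 each for Adora1 (M64299_at), Adora2a (S47609_s_at) and Adora2b (M91466_at). They were chosen as the probe sets whose only gene symbol in the platform annotation is one of these names, and they are 3 of the 1263 probe sets that are not controls, which name 720 genes in all. Another adenosine receptor on the array, Adora3 (AF102804_s_at), was not a member and is counted with the other purine receptors; it was called in 0 of 18 access contrasts and 1 of 6 region contrasts, the lateral hypothalamus at 0.28 above the mean of the others on the log2 scale (limma, adjusted p = 0.0339). Rats self-administered cocaine intravenously at 0.25 mg per injection for 1 h per day (short access) or 6 h per day (long access), and drug-naive rats with 0 h per day served as controls (no access), with 8 rats in each group. RNA of 6 dissected brain regions was hybridised to 63 rat neurobiology arrays, with 3 arrays per access group in the medial prefrontal cortex, septum and ventral tegmental area and 4 in each of the nucleus accumbens, amygdala and lateral hypothalamus. The strain, sex and age of the rats and any pooling of RNA were not given in the sources used here, so p-values measure the spread between arrays. Each access group has more arrays over the 6 regions than its 8 rats. Arrays of different regions can therefore come from the same rats, and which ones do is not given. The fits over all regions treated the 63 arrays as independent. Precision is limited by how few arrays each group has.

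Adenosine is released or formed outside cells when ATP is broken down, and it acts on G protein-coupled receptors. The A1 receptor (Adora1) couples to inhibitory G proteins, lowers cyclic AMP and opens inwardly rectifying potassium channels, and it damps transmitter release at many synapses. The A2A receptor (Adora2a) raises cyclic AMP and is known for its abundance in the striatum, where it sits with the dopamine D2 receptor (Drd2) on the projection neurons that make enkephalin (Penk). The A2B receptor (Adora2b) also raises cyclic AMP, needs more adenosine to be activated, and is known from glia and vessels as well as neurons.

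Levels are given as MAS5 signal, scaled so that all arrays share a trimmed mean of 500 and with values under 32 set to that floor, and differences as log2 of this signal with the standard error. The signal was under 100 on 13 of 63 arrays for Adora1, on 4 for Adora2a and on 9 for Adora2b, and it was at the floor on 2 arrays, both for Adora1. Levels of different probe sets cannot be set against each other, since probes differ in brightness. The suffix of the Adora2a probe set marks probes that can also bind related transcripts, and the other receptors have no such suffix. Known regional transcripts were checked for some dissections: against the average of the remaining regions, the medial prefrontal cortex was higher in Cck by 3.37, the ventral tegmental area in Th by 6.70 and the nucleus accumbens in Drd2 by 3.43. The lateral hypothalamus was higher in Oxt by 6.59, which is a transcript of the paraventricular and supraoptic nuclei and marks hypothalamus but not its lateral part. No defining marker was checked for the septum or the amygdala.

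**Figure D1:**
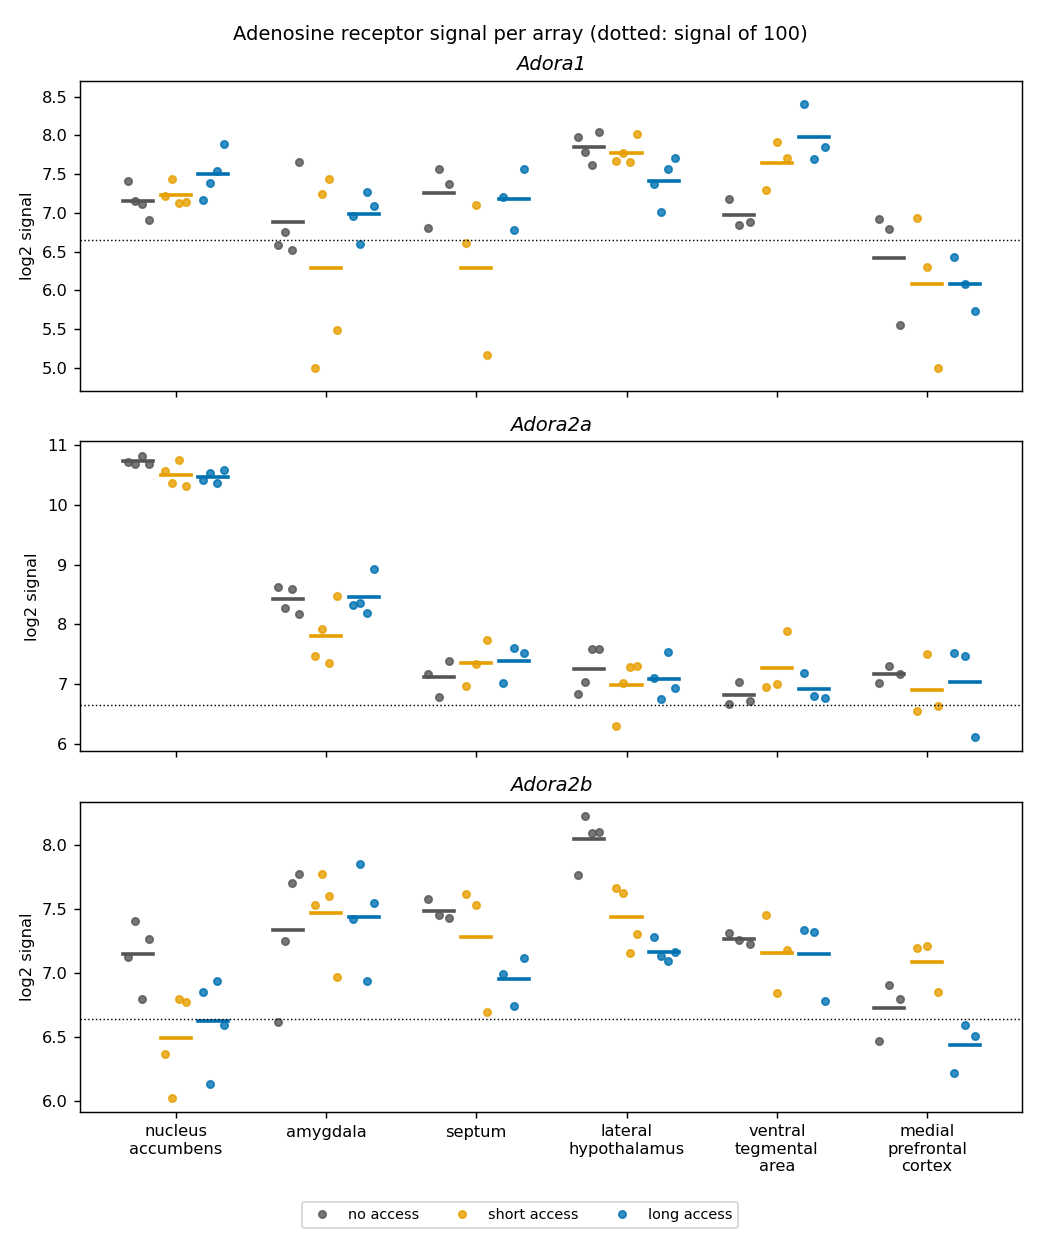
Log2 signal (vertical axis) of each receptor on all 63 arrays, by region (horizontal axis) and access group (colour). Points are arrays, bars are group means and the dotted line is a signal of 100. Adora2a on the 12 nucleus accumbens arrays, from 1273 to 1822 in linear signal, lies above every other array, and Adora2b of the lateral hypothalamus without cocaine lies above both cocaine groups of that region.

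Adora2a was far higher in the nucleus accumbens than elsewhere. Its signal there was lowest at 1273, with a median of 1531 and a highest value of 1822 over 12 arrays. In the amygdala the lowest was 163, the median 316 and the highest 488, and no amygdala array reached the accumbens range. In the remaining regions the medians were 161 in the septum, 134 in the lateral hypothalamus, 144 in the medial prefrontal cortex and 124 in the ventral tegmental area. The nucleus accumbens exceeded the mean of the other 5 regions by 3.24 ± 0.12 (limma, adjusted p = 4.80e-30), where 65.9% of all 858 probe sets tested were called and 9.79% were at least 2-fold higher. The amygdala exceeded the mean of its other 5 regions by 0.43 ± 0.12 (limma, adjusted p = 0.00197; 50.1% of all probe sets called), although that mean includes the accumbens. The other 4 regions were below the mean of the rest by between -1.04 (ventral tegmental area) and -0.71 (septum), and all of them passed the test, where 50.9% to 68.5% of all probe sets did.

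In pairs, the nucleus accumbens was above the amygdala by 2.35 ± 0.15, and the amygdala was above the septum by 0.94 ± 0.16 and above the ventral tegmental area by 1.22 ± 0.16, all past the threshold. The septum, lateral hypothalamus, medial prefrontal cortex and ventral tegmental area, with mean log2 signals of 7.28 or less, were not told apart in any of their pairs. Region accounted for 93.1% of the variance of Adora2a over the 63 arrays, access within regions for 1.65% and the spread within groups for 5.21%. For the median probe set tested, these shares were 57.8%, 9.31% and 30.6%.

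The transcripts most like Adora2a across the 18 group means were Drd1, the dopamine D1 receptor, with a correlation of 0.986, then the retinoid X receptor Rxrg (0.949), the potassium channel Kcnh4 (0.936), Prkar2b, a regulatory subunit of protein kinase A (0.923), and the retinoic acid receptor Rarb (0.923). After each region's own mean was removed, so that only access remained, the correlations were 0.36, 0.51, 0.26, 0.20 and 0.27. These are descriptions over 18 points that share dissections.

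Of the 7 markers of striatal projection neurons on the array, 6 rose in the nucleus accumbens against the mean of the other regions, with a median over the 7 of 2.75 beside -0.01 for all probe sets. Drd1 was higher by 3.80, Drd2 by 3.43, Penk by 2.75, Pdyn (prodynorphin) by 2.70 and Tac1 (substance P) by 2.60. The exception was the muscarinic receptor Chrm4, which varied little and was not called. Its mean log2 signal ran from 7.20 in the accumbens, the lowest of the 6 regions, to 7.50 in the amygdala. In the amygdala, where Adora2a was second highest, it lay below the accumbens by -2.35, beside -2.63 for Drd1, -3.22 for Drd2, -1.28 for Penk, -2.65 for Tac1 and -2.18 for Pdyn. Drd2 had its second highest level not in the amygdala but in the ventral tegmental area, at -1.94 from the accumbens, where Adora2a was lowest.

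**Figure D2:**
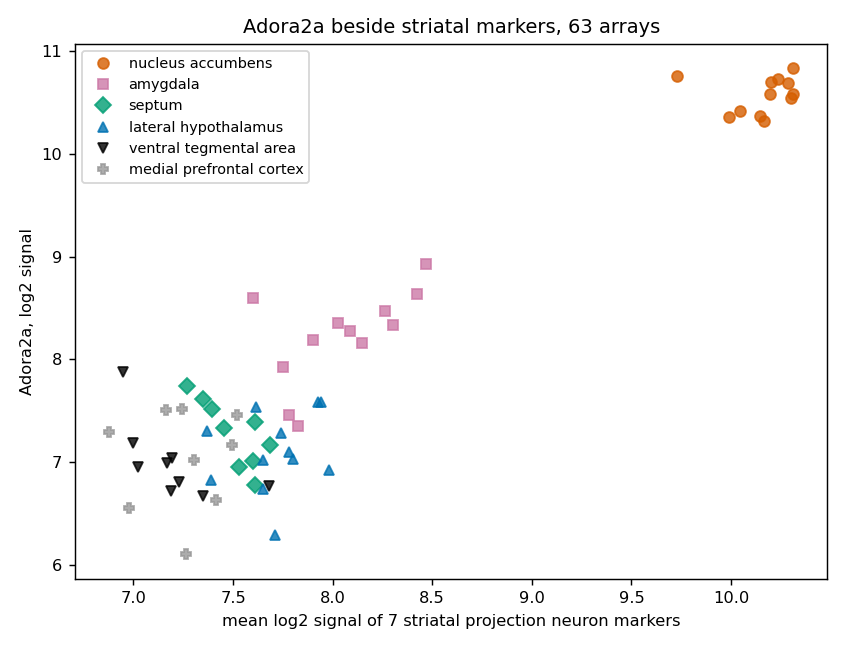
Adora2a log2 signal (vertical axis) against the mean log2 signal of 7 striatal projection neuron markers (horizontal axis), each point 1 of 63 arrays, with region by colour and shape. The nucleus accumbens stands apart on both axes. The amygdala follows by its median but overlaps other regions on both axes, and the remaining 4 regions overlap on the Adora2a axis.

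Within a region, arrays with more striatal marker signal did not carry more Adora2a past adjustment. After access group means were removed, Pearson's r over 12 amygdala arrays was 0.50 (exact permutation p = 0.105, rho = 0.43, p = 0.209), and 0.64 without the 2 arrays farthest from the median marker level. Over 12 nucleus accumbens arrays r was -0.24 (exact permutation p = 0.665, rho = 0.08, p = 0.846), and 0.25 without the 2 farthest arrays. Its sign depended on the markers: with Drd1 and Drd2 alone r was 0.57 and rho 0.70 (exact permutation p = 0.0352 for rho, adjusted p = 0.211). With these, r was negative in the septum (-0.45) and the lateral hypothalamus (-0.19). In the septum r was -0.80 over 9 arrays (exact permutation p = 0.0463, rho = -0.78, p = 0.0556) and -0.56 without the 2 farthest, and its marker means spanned only 7.27 to 7.69. Over the 6 regions none passed adjustment, the smallest adjusted p being 0.241 for r and 0.111 for rho, the latter in the ventral tegmental area (rho = -0.80, exact permutation p = 0.0185).

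Access to cocaine moved Adora2a in no region past the threshold, with 0 of 18 contrasts called and 4 at an unadjusted p under 0.05, beside 4.09% and 13.4% over all probe sets and regions. In the nucleus accumbens the no access arrays had signals of 1693, 1659, 1822 and 1647. The short access arrays had 1529.9, 1316, 1728 and 1273, and the long access arrays 1364, 1491, 1322 and 1532. All 4 long access arrays lay below all 4 no access arrays, while short access overlapped both. The difference was -0.26 ± 0.10 for long against no access (limma, adjusted p = 0.221) and -0.23 ± 0.10 for short against no access (adjusted p = 0.434), with 95% intervals of -0.47 to -0.04 and -0.45 to -0.02. In this region 0.0% of 738 probe sets were called in either contrast, and 9.76% had non-overlapping long and no access groups.

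The striatal markers Drd1, Drd2 and Penk were not called in the nucleus accumbens either. Drd2 differed by -0.12 with long and -0.28 with short access, and Penk by 0.23 and -0.18. The 3 probe sets of Drd1 differed by between -0.42 and -0.07 (adjusted p from 0.198) with long access, and by between -0.69 and -0.16 (adjusted p from 0.278) with short access.

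In the amygdala Adora2a signals were 397, 311, 387 and 287 without cocaine, 176, 243, 163 and 355 with short access and 322, 328, 291 and 488 with long access. A low set of 3 short access arrays lay under all others, and the fourth lay among them. Short access differed from no access by -0.62 ± 0.25 (limma, adjusted p = 0.943) and long from short access by 0.65 ± 0.25 (adjusted p = 0.927), where 0.0% of 732 probe sets were called in each. In the other 4 regions the Adora2a differences ranged from -0.36 to 0.46, and none of them had an unadjusted p under 0.05.

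Adora1 had a flatter distribution over the regions. Its median signal was 207 for the ventral tegmental area, 206 for the lateral hypothalamus, 146 for the nucleus accumbens, 137 for the septum, 116 for the amygdala and 79.1 for the medial prefrontal cortex. The lateral hypothalamus exceeded the mean of the other 5 by 0.75 ± 0.17 (limma, adjusted p = 0.000135; 55.5% of probe sets called) and the ventral tegmental area by 0.57 ± 0.19 (adjusted p = 0.00667; 68.5% called). The medial prefrontal cortex was below the others by -1.03 ± 0.19 and the amygdala by -0.40 ± 0.17 (adjusted p = 0.0409; 50.1% called). The amygdala call was lost with no floor (adjusted p = 0.0565), with dim probe sets kept (0.0625) and on the no access arrays alone (-0.25, adjusted p = 0.425). It was also lost without 1 of 12 arrays, at -0.40 to -0.26 (adjusted p = 0.0504 to 0.187): no access 1, 2 or 3, short access 1 or 4 or long access 1 or 2 of the amygdala, short access 2 or long access 3 of the septum, long access 1 of the ventral tegmental area, and no access 1 or short access 1 of the prefrontal cortex. The value of -0.26 was that without amygdala short access array 1, which was at the floor. The nucleus accumbens and septum were not called. No neighbours in the order of mean levels (lateral hypothalamus, ventral tegmental area, accumbens, septum, amygdala, prefrontal cortex) were told apart. The amygdala and prefrontal cortex came nearest, at 0.52 ± 0.23 (limma, adjusted p = 0.0559). They were told apart on deposited values (0.45, adjusted p = 0.0204), with a floor of 64 (0.46, adjusted p = 0.0204) and in some fits without 1 array. The place of the ventral tegmental area rested on the cocaine groups: among the no access arrays alone it differed from the mean of the other 5 by -0.14 (adjusted p = 0.681).

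The genes most like Adora1 over the 18 group means were Gabbr1, a subunit of the GABA-B receptor, at 0.864, the ribosomal protein Rpsa at 0.831, and 3 myelin genes, Mbp at 0.819, Mag at 0.807 and Cnp at 0.785. With region means removed these were 0.28, 0.26, 0.55, 0.35 and 0.04. Between the receptors, the correlation over the 18 means was 0.12 for Adora1 and Adora2a, 0.30 for Adora1 and Adora2b and -0.34 for Adora2a and Adora2b.

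In the ventral tegmental area Adora1 was higher with cocaine. The 3 no access arrays read 145, 114 and 118, the short access arrays 157, 241 and 209.7, and the long access arrays 338, 207 and 230.1. Neither cocaine group overlapped the no access group, while the cocaine groups overlapped each other. Long access was 2.02-fold above no access, 1.01 ± 0.23 on the log2 scale with a 95% interval of 0.51 to 1.51 (limma, adjusted p = 0.0292), in a contrast where 2.91% of 722 probe sets were called, 1.94% in the higher direction, and 24.1% had groups that did not overlap. Short access was above no access by 0.67 ± 0.23 without passing the adjustment (adjusted p = 0.282; 0.831% called, 12.6% not overlapping). Long against short access was 0.34 ± 0.23 (adjusted p = 0.529; 2.63% called).

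This call depended on single arrays and settings. It was lost without any 1 of the 3 no access arrays, without long access array 1 or without long access array 3, with estimates of 0.80 to 1.12 and adjusted p of 0.0641 to 0.129. It was also lost, at an unchanged estimate, when dim probe sets were kept (adjusted p = 0.128) and when all 63 arrays were fitted together (adjusted p = 0.747). The controls of the arrays moved with access in the same direction. The mean log2 signal of the 6 antisense controls was 7.10 ± 0.03 (SD, n = 3 arrays) without cocaine, 7.41 ± 0.08 with short and 8.04 ± 0.19 with long access, and that of the 9 bacterial spike-in controls was 11.55 ± 0.14, 11.95 ± 0.09 and 12.32 ± 0.11. With spike-in level entered as covariate the Adora1 difference was -0.30 ± 0.72 (adjusted p = 0.926), and with the antisense level 2.67 ± 0.78 (adjusted p = 0.182). Since each access group holds its own range of control levels, access and these controls cannot be told apart here.

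Elsewhere Adora1 was not called. In the lateral hypothalamus its signals were 253, 220.2, 197 and 263 without cocaine, 204, 218, 201 and 259 with short access and 166, 128, 189 and 209 with long access. The long access arrays were the lowest as a group but overlapped the others, and the difference from no access was -0.44 ± 0.17 (limma, adjusted p = 0.0579). In the septum the readings were 112, 190.1 and 166 without cocaine, 98.0, 137 and 35.8 with short access and 147, 109 and 189 with long access. The short access array at 35.8 was the lowest of the region, and short access differed from no access by -0.96 ± 0.42 (adjusted p = 0.320; 1.9% of 736 probe sets called). In the amygdala the short access arrays scattered from the floor of 32 to 173, and no contrast had an unadjusted p under 0.05. In the nucleus accumbens the long access arrays read 144, 168, 187 and 237 beside 171, 142, 139 and 121 without cocaine, a difference of 0.35 ± 0.17 (adjusted p = 0.359). In the medial prefrontal cortex Adora1 was too dim to be tested, with signals from the floor of 32 to 122.

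By mean level Adora2b was highest in the lateral hypothalamus and lowest in the nucleus accumbens and medial prefrontal cortex. Its median signal was 186 for the amygdala, 178 for the lateral hypothalamus, 173 for the septum, 153 for the ventral tegmental area and 111 for both low regions. The lead of the lateral hypothalamus rested on its no access arrays, with a mean log2 signal of 8.05. With short access it was at 7.44 beside 7.47 in the amygdala, and with long access at 7.17 beside 7.44. Against the mean of the other 5 regions the lateral hypothalamus was higher by 0.48 ± 0.10 (limma, adjusted p = 4.95e-05) and the amygdala by 0.32 ± 0.10 (adjusted p = 0.00676). The nucleus accumbens was lower at -0.47 ± 0.10 and the medial prefrontal cortex at -0.48 ± 0.11 (67.2% of probe sets called in the latter), and the septum and ventral tegmental area were not called. In the order of mean levels the only neighbours told apart were the nucleus accumbens and ventral tegmental area, at -0.43 ± 0.14 for the first minus the second (adjusted p = 0.00452). On the no access arrays alone this pair was at -0.11 (adjusted p = 0.709), and neither the amygdala (0.0024, adjusted p = 0.990) nor the accumbens (-0.22, adjusted p = 0.297) was called against the other 5 regions. The amygdala call was also lost with quantile normalization (0.23, adjusted p = 0.0540) and with array weights (0.22, adjusted p = 0.128). Over all pairs of regions 27 of 45 were called for the 3 receptors, 9 for each, beside 58.3% of all probe sets.

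In the lateral hypothalamus Adora2b was lower in both groups of rats with cocaine. The no access arrays read 218, 299, 273 and 274. The short access arrays read 203, 197, 143 and 158, and the long access arrays 156, 140.0, 137 and 143. All 8 arrays of rats with cocaine lay below all 4 without. With long access the log2 difference of Adora2b from no access was -0.88 ± 0.15, or 0.544 of the no access level (95% interval -1.20 to -0.55, limma, adjusted p = 0.000543). With short access it was -0.61 ± 0.15, or 0.656 of that level (limma, adjusted p = 0.0111). Long against short access was -0.27 ± 0.15 (adjusted p = 0.296; 8.91% called). Calls were common in this region: 29.7% of 718 probe sets were called for long and 22.4% for short access against none, 16.3% and 12.1% in the lower direction, and 29.8% and 25.9% had groups that did not overlap. Adora2b ranked 61 and 84 by p.

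**Figure D3:**
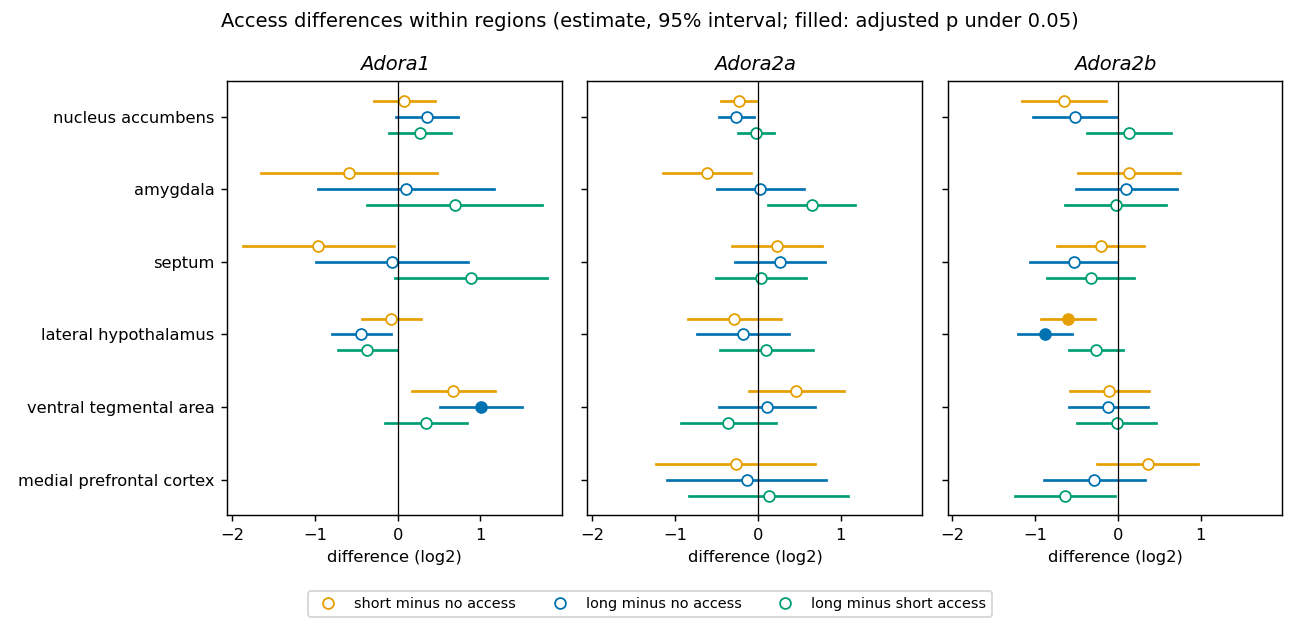
Differences in log2 signal (horizontal axis) between access groups for each receptor and region (vertical axis), with 95% intervals; filled points passed an adjusted p of 0.05. The 3 filled points are Adora1 in the ventral tegmental area at 1.01 and Adora2b in the lateral hypothalamus at -0.88 and -0.61. Adora1 of the medial prefrontal cortex was not tested.

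Both Adora2b calls held without any 1 array, with estimates of -0.97 to -0.82 for long and -0.70 to -0.52 for short access. The short access call was lost in 1 fit of all 63 arrays (adjusted p = 0.0719), and both were lost with the array controls as covariates. The antisense controls of these arrays were at 8.13 ± 0.21 (SD, n = 4 arrays) without cocaine, 6.84 ± 0.17 with short and 6.75 ± 0.15 with long access, and the spike-in controls at 12.05 ± 0.14, 11.61 ± 0.27 and 11.39 ± 0.12. With the spike-in level in the fit the long access difference was -0.88 ± 0.31 (adjusted p = 0.103) and the short one -0.61 ± 0.24 (adjusted p = 0.120). With the antisense level they were -0.78 ± 0.59 (adjusted p = 0.489) and -0.52 ± 0.55 (adjusted p = 0.625). The covariate and the access groups overlap so little that the estimates carry wide errors, and the controls and access cannot be told apart.

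Markers of other cells also moved in this region, and their part in the Adora2b result was not tested. The summed log2 level of 8 astrocyte markers was 16.06 to 16.22 on the no access arrays, 15.73 to 16.02 with short and 15.57 to 15.89 with long access. That of 6 microglial and immune markers was 11.90 to 12.08, 11.74 to 11.85 and 11.02 to 11.50, and that of 3 vessel and meningeal markers was 11.99 to 12.52, 11.63 to 11.99 and 11.53 to 11.89. The 6 oligodendrocyte markers were at 15.55 to 15.73, 15.53 to 15.75 and 15.32 to 15.52. No marker of these 4 lists was at the floor on all arrays of a group. In bulk tissue, fewer cells of a type and less RNA per cell cannot be told apart.

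**Figure D4:**
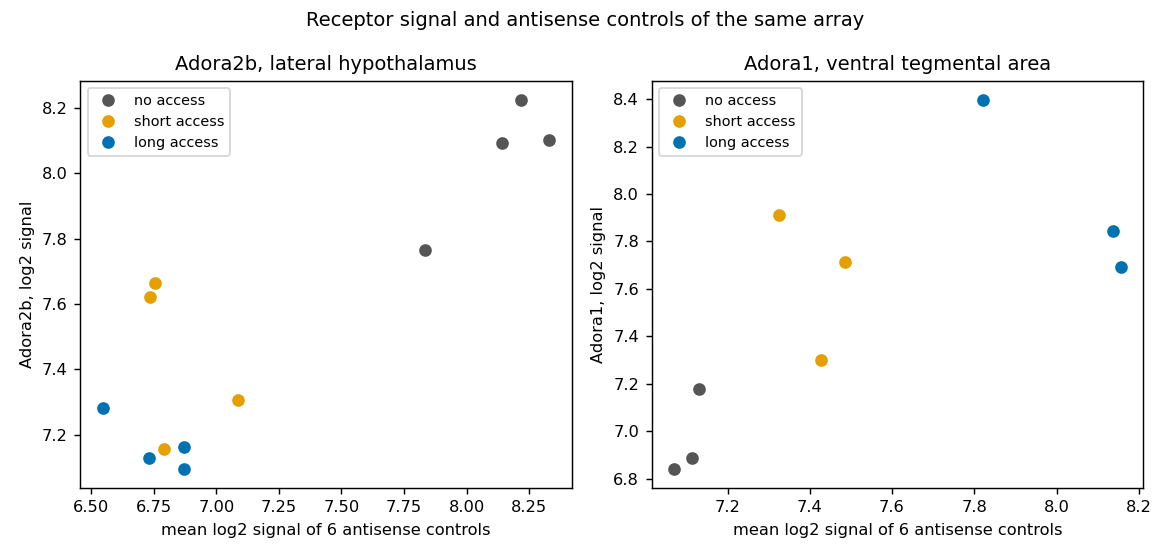
Receptor log2 signal (vertical axis) against the mean log2 signal of the 6 antisense controls of the same array (horizontal axis), for Adora2b in the lateral hypothalamus (left) and Adora1 in the ventral tegmental area (right), coloured by access. In both regions the no access arrays lie apart from both cocaine groups on each axis, while the cocaine groups overlap each other on the receptor axis: on the control axis no access is at 8.13 against 6.75 for long access on the left, and 7.10 against 8.04 on the right.

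Among genes around the receptors in the lateral hypothalamus, the list of adenosine handling and other purine receptor genes had none called with either access (4 of its 9 genes on the array were tested), with P2rx2, an ATP-gated channel, at -0.49 (adjusted p = 0.0509) with long access. Of 6 tested genes of G protein subunits and regulators, 1 rose and 1 fell with long access: Grk2, a receptor kinase, by 0.93 and Gnb1, a beta subunit, by -1.06. With short access 2 rose, Grk2 by 0.69 and the arrestin Arrb2 by 0.33, and Gnb1 fell, at -0.99. Of 5 cyclic AMP genes 1 fell with long access, Crem, at -0.46, and with short access Crem and the phosphodiesterase Pde4b fell, at -0.96 and -0.55. None of 6 channel genes that the A1 receptor acts on was called with either access. Of 6 known receptor partners, Fgfr1 and the neurotrophin receptor Ntrk2 rose by 0.71 and 0.43 with long access, and Ntrk2 alone rose with short access, by 0.42. The striatal markers had 0 of 4 called with long access and 1 of 4 with short access, Tac1 at -0.40 (limma, adjusted p = 0.0425). Over all 718 probe sets tested in this region, 29.7% were called with long and 22.4% with short access.

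Among glial and vessel lists with long access, 1 of 8 astrocyte genes rose and 3 fell (Vim at -0.84), 3 of 4 microglial and immune genes fell (B2m at -0.67), 2 of 6 oligodendrocyte genes rose and 3 fell (Sox10 at 1.14, Mbp at -0.36), and 1 of 3 vessel genes fell (Slc2a1 at -0.71), beside 96 higher and 117 lower of all 718. With short access 2 of 8 astrocyte genes fell (Glul at -0.56), 1 of 4 microglial and immune genes fell (B2m at -0.30), 3 of 6 oligodendrocyte genes rose and 1 fell (Sox10 at 1.20, Mog at -0.19), and 1 of 3 vessel genes fell (Slc2a1 at -0.51), beside 74 higher and 87 lower of all 718.

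In the ventral tegmental area with long access, Gnb1 and Gnb2, the beta subunits of G proteins, rose by 0.59 and 0.33, and Igf2 of the vessel and meningeal list rose by 0.59. The 8 remaining lists had 0 genes called there, beside 14 higher and 7 lower of 722. The summed vessel and meningeal level was 12.77 to 12.79 without cocaine and 12.98 to 13.02 with long access, and its part in the Adora1 result was not tested. The astrocyte, oligodendrocyte and microglial sums overlapped between these groups.

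Adora2b outside the lateral hypothalamus had no called contrast. In the septum the signals were 191, 175 and 173 without cocaine, 197, 185 and 104 with short access and 127, 107 and 139 with long access. The long and no access groups did not overlap there, at -0.53 ± 0.24 (limma, adjusted p = 0.249; 2.31% called, 24.9% not overlapping). In the nucleus accumbens the no access arrays read 139, 169.9, 111 and 154, the short access arrays 82.5, 65.2, 111 and 109 and the long access arrays 115, 70.3, 123 and 96.7, with differences from no access of -0.66 ± 0.24 for short (limma, adjusted p = 0.296) and -0.52 ± 0.24 for long access (adjusted p = 0.303). In the medial prefrontal cortex the short access arrays, at 146, 148 and 115, lay above the long access arrays, at 74.6, 96.8 and 91.2 (long minus short -0.64 ± 0.27, limma, adjusted p = 1; 0.0% of 680 called, 3.68% not overlapping). It was the probe set with the smallest p in that contrast, but that p was 0.0399 unadjusted (limma). Only 2 of 680 probe sets had an unadjusted p under 0.05 there. In the amygdala and ventral tegmental area its differences ranged from -0.12 to 0.13.

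Over the mean of 6 regions Adora2b fell by 0.37 ± 0.10 with long access (limma, adjusted p = 0.0390), in a contrast where 1.17% of 858 probe sets were called, 0.466% in the lower direction. Long access was lower than no access in 5 of its 6 regions, the amygdala being the exception at 0.10. Without the lateral hypothalamus the mean was -0.27 (adjusted p = 0.383), and the call was also lost without any 1 of 25 of the 63 arrays. Short access gave -0.18 ± 0.10 (adjusted p = 0.505; 0.816% called) and long against short access -0.19 ± 0.10 (adjusted p = 0.449; 0.233% called). For Adora1 and Adora2a no mean contrast was called. Their signs were mixed over regions, with 3 of 5 higher for Adora1 and 3 of 6 for Adora2a under long access.

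Whether an access effect differed between regions was tested against the mean of the other 5 regions, and 0 of 54 such differences were called for the 3 receptors, with 10 at an unadjusted p under 0.05, beside 1.12% of all probe sets called and 7.78% at an unadjusted p under 0.05. By adjusted p the nearest were Adora2b of the lateral hypothalamus with long access, at -0.61 ± 0.25 (limma, adjusted p = 0.0938; 12.8% of probe sets called), and with short access, at -0.51 ± 0.25 (adjusted p = 0.216). For the within-region call of Adora1 in the ventral tegmental area, this difference was 1.09 ± 0.46 (adjusted p = 0.863; 0.0% called). With array weights in the fit, the Adora2b differences of the lateral hypothalamus were called, at -0.65 for long (adjusted p = 0.0313) and -0.63 for short access (adjusted p = 0.0484). In all, 3 of 51 access contrasts within regions were called, beside 4.09% over all probe sets.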

How the data were processed

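Arrays were Affymetrix rat neurobiology arrays. The authors deposited linear signal intensities, which the submitters' processing notes credit to MAS5. The scaling target and detection calls are not given in the sources used here. Biotinylated cRNA was made from total RNA, per the labels' protocols. The deposited 2% trimmed mean lay between 250.8 and 251.3 on all arrays, and 17.3% to 25.1% of probe sets were at the floor after rescaling. No 2 arrays were identical (highest correlation 0.986).

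Of 1322 probe sets, 59 controls were left out. The 1263 others were scaled, array by array, to a 2% trimmed mean of 500, with values under 32 set to 32 before log2 was taken. Probe sets with a mean signal of at least 100 in the region were tested, and in fits of all regions those that did so in at least 1. limma 3.58.1 in R 4.3.3 (lmFit, eBayes with intensity trend) fitted the access groups of each region, and 1 fit of 63 arrays in 18 groups gave the comparisons across regions. Benjamini-Hochberg adjustment ran over all probe sets of a contrast, at 0.05. Values set to the floor can understate fold changes. Low MAS5 signals also scatter, as for Adora1 in the amygdala with short access (log2 SD 1.23, n = 4 arrays). Correlations within regions used exact two-sided permutation within access groups (scipy 1.17.1). The fits were tested on simulated data.

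The members, gene lists and alternatives were chosen with earlier results of these data known. The named genes are the receptors, the 5 genes most like each, up to 4 with the smallest p in a list where a receptor was called, and Drd1, Drd2 and Penk in the nucleus accumbens. Alternatives were other scalings, floors, filters and variance models, no cross-hybridising probe sets, a replicate block, other sets of arrays in the fit, control levels as covariates (for the ventral tegmental area chosen after seeing the data) and each array left out in turn.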

Additional observations from a re-analysis of the deposited data

How the results depend on the processing

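The rise of Adora1 in the ventral tegmental area with long access lost its call under quantile normalization (1.03, adjusted p = 0.0584), and at 1.01 with no filter (0.128), no intensity trend (0.0667), no cross-hybridising probe sets (0.0558) and 1 fit of all 63 arrays (0.747). With control levels as covariates it was -0.30 (spike-in) and 2.67 (antisense). Leaving out 1 array gave 0.80 to 1.15. Adora2b with short access in the lateral hypothalamus was -0.61 (0.0719) in 1 fit of all arrays, and with the spike-in and antisense covariates -0.61 and -0.52, while long access was -0.88 and -0.78 with them. The sign of Adora1 there turned to 0.20 with the antisense covariate. Leaving out 1 array gave -0.97 to -0.82 for long and -0.70 to -0.52 for short access, all called. Over the mean of regions Adora2b was -0.27 without the lateral hypothalamus, and -0.41 to -0.34 with 1 array left out. The highest Adora2a level, in the accumbens, stayed between 3.20 and 3.38 above the other regions. With the no access arrays alone, Adora1 of the ventral tegmental area was -0.14 from the other 5 regions and of the septum 0.28 from the ventral tegmental area. The correlation of Adora2a with striatal markers became -0.078 in the medial prefrontal cortex on deposited values, and with Drd1 and Drd2 alone 0.57 in the accumbens, -0.19 in the lateral hypothalamus and 0.11 in the ventral tegmental area. The cause of these changes was not tested.

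At a filter of 200 only 9 access contrasts and 6 mean contrasts were fitted, with 1 and 0 called. Adora2b in every region and Adora1 in the ventral tegmental area fell under that filter, so their calls were not tested there. Other counts of calls were 1 for access in 1 fit of all arrays and 0 for the mean of regions without the lateral hypothalamus. For regions there were 8 without cross-hybridising probe sets, where Adora2a is not fitted. For pairs there were 17 with no access arrays alone, and for differences between regions 2 with array weights. With 1 array left out the counts were 2 to 4 for access, 0 to 1 for the mean, 13 to 14 for regions, 25 to 30 for pairs and 0 to 0 for differences. The labels do not say whether equal replicate numbers pair the arrays. Deviations of same-numbered arrays of a region correlated from -0.18 to 0.79 over 63 pairs, 34 of them above 0.1. Of these pairs, 53 correlated more than differently numbered arrays. That is a hint, from the data only, of a shared factor that the main fits leave out. The medial prefrontal cortex held the highest correlations, from -0.0014 to 0.79, while no pair elsewhere exceeded 0.34. In the main limma fit of that region few probe sets of 680 had an unadjusted p under 0.05. They were 4 for long against no, 2 for short against no and 2 for long against short access. Missing calls in that region therefore say little about access. The replicate block moved the access calls from 3 to 4, adding Adora1 with long access in the lateral hypothalamus at -0.44 (adjusted p = 0.0351), and left the other counts at 1, 14, 27 and 0. That Adora1 difference was also called with a filter of 200 (0.0420) and with no intensity trend (0.0492). In the fits of all regions the replicate block was shared by every region. The unchanged counts there do not cover a factor that differs by region. Few arrays and signals near 100 limit what can be shown for Adora1 and Adora2b.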
